A study of Homo sapiens with 8 samples.

Results

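B-lineage transcription factors are the nuclear proteins that open, maintain and finally close the B-cell gene program. The set described here holds 10 genes (PAX5, EBF1, TCF3, POU2F2, POU2AF1, SPI1, IKZF1, BCL6, PRDM1 and IRF4), chosen by name, and every array probe whose transcript accession maps to one of them was taken. Of the 10 genes, 9 had such a probe, with 12 of the 41000 probes on the array between them. After filtering, 10 of these probes, for 7 genes, were among the 22477 probes kept. BCL6 was not analysed here, and EBF1 and SPI1 had a probe that did not pass the filter.

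The transcripts were measured in L1236, an established Hodgkin lymphoma cell line, in GFP+ cells sorted after retroviral transduction. The cells carried empty pMSCV-PIG vector (EV) or the same vector with a miR-155 sponge (miR-155-sp). The sponge is a transcript with repeated miR-155 binding sites, built to compete with natural targets. The study that reported these data proposes that it did not capture all of the abundant miR-155 in these cells. From each cell population the total RNA (T) and the RNA precipitated with an antibody against Argonaute 2 (Ago2-IP, IP) were hybridised, which gives 4 groups of 1 RNA sample each. Every RNA was labelled once with Cy3 and once with Cy5, and IP and T of one population shared an array, so that 4 two-colour Agilent arrays gave 8 channels. The ± values are the SD over the 2 dyes, or over the 2 dye orientations for an IP/T ratio. For a median over genes they are the SD of the 2 medians taken per dye or orientation, not the spread between genes. They say nothing of how far separate cultures or precipitations would differ. A group of 1 RNA sample allows no test, so p-values are absent throughout. Where channels are said to overlap or not, they are dye labellings of the same RNA. The share of all kept probes with such a separation was not counted.

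Ago2 is the protein that holds a miRNA and, through it, the transcripts with matching sites, and the IP/T ratio of a transcript compares its signal in the precipitate with that in the whole cells, relative to all other transcripts because the channels were normalised to each other. A precipitate with a control antibody was not analysed here. In B-cell development TCF3, EBF1 and PAX5 act in sequence to commit cells to the lineage, SPI1 and IKZF1 work earlier, POU2F2 and its coactivator POU2AF1 serve immunoglobulin transcription, and BCL6 gives way to IRF4 and PRDM1 when cells become plasma cells. Classical Hodgkin lymphoma cells derive from germinal centre B cells and are known for having lost much of this program.

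Mature sequences of 4 miRNAs with published links to the members are shown for orientation, 5′ to 3′ as in RefSeq (GRCh38.p14), with the seed (bases 2 to 8) in capitals. MiR-155-5p is the miRNA the sponge was built against and is a known regulator of SPI1. MiR-9-5p and let-7a-5p are known regulators of PRDM1, and miR-125b-5p of both PRDM1 and IRF4.
hsa-miR-155-5p: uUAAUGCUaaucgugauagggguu
hsa-miR-9-5p: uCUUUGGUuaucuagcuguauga
hsa-let-7a-5p: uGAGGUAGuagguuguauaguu
hsa-miR-125b-5p: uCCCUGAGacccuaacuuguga
The 4 seeds differ from each other, and miR-155-5p lies at chr21:25573983-25574006 on the plus strand. No miRNA level and no sponge transcript was analysed here, so the values below cannot be assigned to any of the 4.

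The share of spots well above background was 54.1% in sponge T labelled with Cy5 and at most 65.7% in the other channels, and no spot was saturated. All 15 Hodgkin cell markers of the list passed the filter, among them TNFRSF8 (CD30), which had a signal (log2) of 13.99 in EV T. Of the B-cell markers, CD79A and CD79B were among those that passed, whereas MS4A1 (CD20) and CD22 were well above background in 0 of 8 channels. Of the 11 T-cell markers, 8 were well above background in 4 or more channels and 4 were kept. Of the T-cell receptor complex genes, CD247 was kept with detection in 5 of 8 channels. CD3E was detected in 8 of 8 channels but not kept, and CD3D and CD3G were detected in 0. The coreceptor gene CD4 was kept with a signal (log2) of 14.20 in EV T. Of the 10 myeloid markers, 3 were well above background in 4 or more channels, CD14 and CSF1R were kept, and LYZ, MPO, CD163, S100A9 and ELANE were detected in 0 of 8. The part of RNA from other cell types in the results was not tested. Fewer cells with a transcript and less of it per cell cannot be told apart in these bulk RNA samples.

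**Figure D1:**
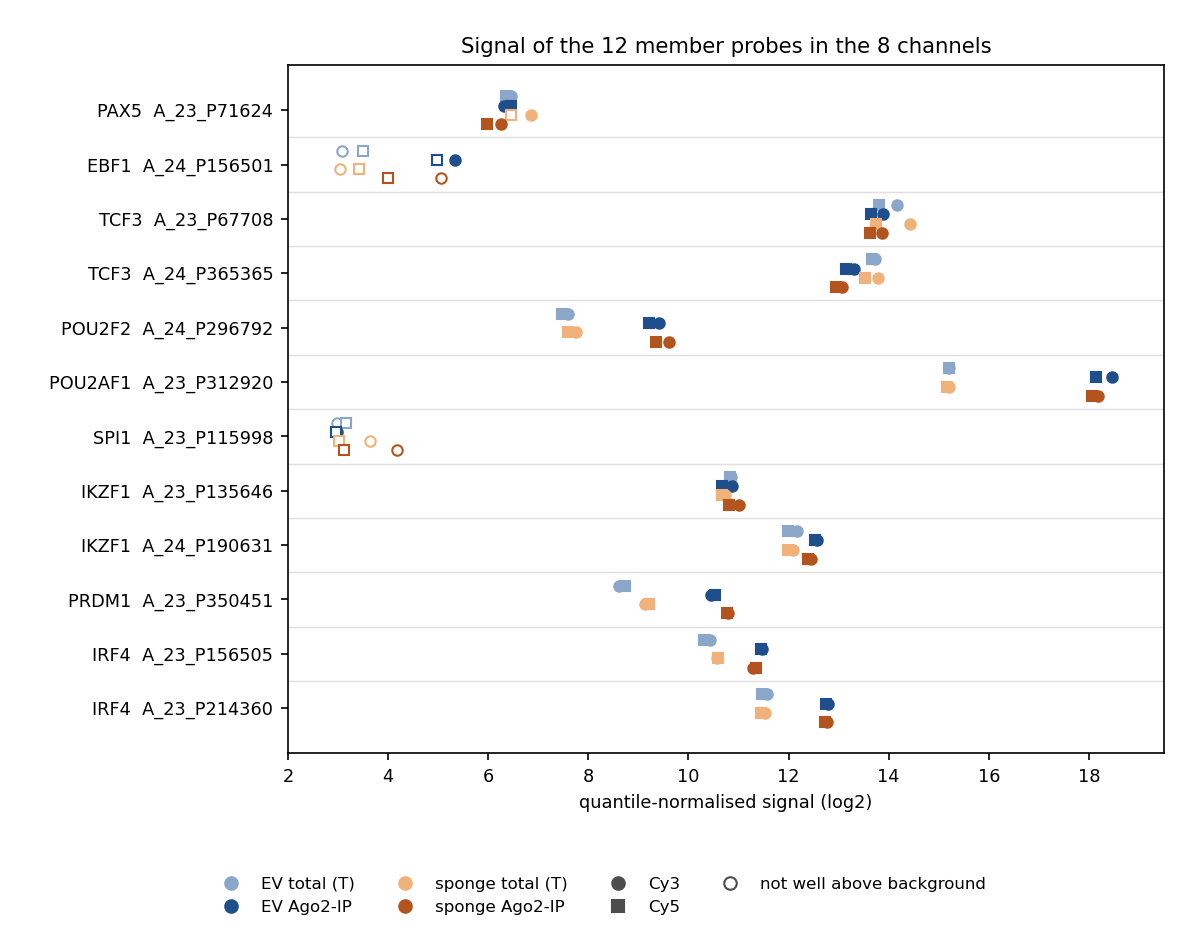
Quantile-normalised signal (log2, x axis) of the 12 member probes in the 8 channels. Colours give the 4 RNA samples, circles Cy3 and squares Cy5, and open symbols a channel in which the probe was not well above background. All SPI1 channels are open, 1 EBF1 channel is filled, and the IP symbols of POU2AF1, POU2F2, PRDM1 and IRF4 lie to the right of the T symbols.

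POU2AF1, the lymphoid coactivator known as BOB.1 or OBF-1, had the highest IP/T of the members. Its probe (A_23_P312920) gave signals (log2) of 15.20 and 15.21 in EV T (Cy3, then Cy5), 18.45 and 18.15 in EV IP, 15.20 and 15.16 in sponge T, and 18.18 and 18.05 in sponge IP. All 4 IP channels were above all 4 T channels. In EV cells this gave a log2 IP/T of 3.10 ± 0.22, an 8.55-fold higher signal in IP, and only 1.52% of the kept probes had a higher ratio. In sponge cells it was 2.94 ± 0.12, or 7.65-fold, with 1.68% of the kept probes above it. Over all kept probes the EV ratios had a median of −0.16 (log2 IP/T), with 95% of the probes between −1.79 and 2.70, and the sponge ratios a median of −0.13.

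POU2F2 (OCT2), the octamer-binding factor that recruits POU2AF1, was also higher in IP. Its signals (log2; Cy3, then Cy5) were 7.59 and 7.46 in EV T, 9.41 and 9.22 in EV IP, 7.75 and 7.59 in sponge T, and 9.60 and 9.36 in sponge IP. The dye channels of IP and T did not overlap in either population. EV cells had a log2 IP/T of 1.79 ± 0.22 (3.45-fold) and sponge cells one of 1.81 ± 0.28 (3.51-fold). After background correction with normexp, which adds an offset, its log2 IP/T in EV cells was 0.66 (with quantile normalisation) or 0.75 (with loess), below 2-fold.

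PRDM1 (BLIMP1), the repressor that ends the B-cell program in plasma cells, was higher in IP and was the member with the largest difference between sponge and EV cells in T. Its signals (log2; Cy3, then Cy5) were 8.62 and 8.74 in EV T, 10.44 and 10.52 in EV IP, 9.13 and 9.21 in sponge T, and 10.78 and 10.76 in sponge IP. Every sponge channel was above every EV channel of the same fraction. The log2 IP/T of EV cells was 1.80 ± 0.14 (3.49-fold) and that of sponge cells 1.60 ± 0.04 (3.04-fold), a difference of −0.20 ± 0.10. With normexp the ratios were lower, at 0.94 (EV) and 0.91 (sponge) with quantile normalisation and 1.02 and 0.78 with loess, so that the EV value with loess alone stayed above 2-fold. In EV cells, its difference in log2 IP/T from POU2F2 was 0.018 ± 0.36, within the SD, whereas POU2AF1 stood 1.29 ± 0.36 above PRDM1.

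IRF4, which drives plasma cell differentiation and is kept in Hodgkin cells, had 2 probes. Probe A_23_P214360 gave signals (log2; Cy3, then Cy5) of 11.58 and 11.46 in EV T, 12.79 and 12.75 in EV IP, 11.52 and 11.46 in sponge T, and 12.77 and 12.72 in sponge IP. These values separate IP from T and hardly separate sponge from EV cells. EV cells had a log2 IP/T of 1.25 ± 0.11 (2.38-fold), sponge cells one of 1.26 ± 0.08 (2.39-fold). The second probe, A_23_P156505, gave 10.42 and 10.31 in EV T, 11.47 and 11.45 in EV IP, 10.57 and 10.59 in sponge T, and 11.28 and 11.35 in sponge IP. Here IP and T lay closer together in sponge cells, and the log2 IP/T of 1.09 ± 0.10 (2.13-fold) in EV cells stood against 0.74 ± 0.06 (1.67-fold) in sponge cells. The 2 probes thus disagreed on the difference between the populations: the change in log2 IP/T of A_23_P156505 was −0.35 ± 0.16 and that of A_23_P214360 was 0.0074 ± 0.027.

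IKZF1 (Ikaros), a zinc finger factor needed from the earliest lymphoid stages, also had 2 probes with different ratios. Probe A_24_P190631 gave signals (log2; Cy3, then Cy5) of 12.17 and 11.98 in EV T, 12.58 and 12.53 in EV IP, 12.09 and 11.99 in sponge T, and 12.46 and 12.40 in sponge IP, from which log2 IP/T was 0.48 ± 0.17 (EV) and 0.39 ± 0.12 (sponge). Probe A_23_P135646 gave 10.84 and 10.83 in EV T, 10.88 and 10.67 in EV IP, 10.73 and 10.66 in sponge T, and 11.02 and 10.80 in sponge IP. For this probe IP and T overlapped in EV cells but not in sponge cells. The EV log2 IP/T was −0.07 ± 0.15, with the opposite sign in 3 of 14 alternative settings, and the sponge value was 0.22 ± 0.20. The EV ratios of the IKZF1 probes differed by 0.54 ± 0.02 (log2), more than the SD over the orientations.

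TCF3 (E2A), the E protein at the start of B-cell commitment, had the lowest IP/T in EV cells. Probe A_24_P365365 gave signals (log2; Cy3, then Cy5) of 13.73 and 13.66 in EV T, 13.32 and 13.15 in EV IP, 13.79 and 13.53 in sponge T, and 13.08 and 12.95 in sponge IP, with every IP channel below every T channel. The log2 IP/T came to −0.46 ± 0.17 (EV, 0.73-fold) and −0.65 ± 0.28 (sponge, 0.64-fold). Probe A_23_P67708 gave 14.17 and 13.80 in EV T, 13.88 and 13.64 in EV IP, 14.42 and 13.75 in sponge T, and 13.86 and 13.63 in sponge IP. In this probe the Cy3 value was above the Cy5 value in each RNA, and IP and T overlapped. Both its log2 IP/T values, −0.23 ± 0.43 (EV) and −0.34 ± 0.63 (sponge), lay closer to 0 than their SD.

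PAX5, which holds B-cell identity in mature cells, was dim but detected. It was well above background in 7 of 8 channels, sponge T in Cy5 being the exception, and that channel also had the lowest share of detected spots. In sponge IP (Cy3), EV IP (Cy5) and sponge T (Cy5) its processed signals were 65.5, 94.5 and 67.7. The highest negative control spot in these channels was brighter, at 216, 149 and 118, and in the other channels it was dimmer than PAX5. Its signals (log2; Cy3, then Cy5) were 6.45 and 6.35 in EV T, 6.31 and 6.45 in EV IP, 6.86 and 6.45 in sponge T, and 6.25 and 5.97 in sponge IP. IP and T overlapped in EV cells, and IP was below T in both dyes in sponge cells. Log2 IP/T was −0.02 ± 0.03 (EV) and −0.55 ± 0.49 (sponge), the latter with orientation values of −0.90 and −0.20. With normexp the sponge value turned to 0.015 (quantile) or 0.065 (loess).

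EBF1, the partner of TCF3 and PAX5 in B-cell commitment, was well above background in 1 of 8 channels (EV IP in Cy3), and its dyes lay up to 2.10-fold apart, so that it was not kept. Its signals (log2; Cy3, then Cy5) were 3.07 and 3.50 in EV T, 5.34 and 4.98 in EV IP, 3.05 and 3.42 in sponge T, and 5.06 and 3.99 in sponge IP. Neither T channel of EV cells was detected, so its IP/T could not be bounded. With normexp, which adds an offset, and loess the measured IP signal was 1.04-fold that of T in EV cells. The signals above, without this offset, lay further apart, so the settings disagree on this undetected T signal. SPI1 (PU.1), the ETS factor of myeloid and early B cells, was well above background in 0 of 8 channels. Its signals (log2) lay between 2.95 and 4.17, and no fold is given. Whether the sponge altered SPI1, the member known as a miR-155 target, was therefore not measurable with this probe.

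Of the 10 kept member probes, 5 (4 genes: POU2AF1, PRDM1, POU2F2 and IRF4) had an IP/T of 2 or more in EV cells, against 17.5% of all kept probes. None had an IP/T of 0.5 or less, against 19.0% of all kept probes. In sponge cells 4 member probes, for the same 4 genes, had an IP/T of 2 or more, again against 17.5% of all kept probes. The probe below the threshold in sponge cells was IRF4 A_23_P156505. The share with a ratio of 0.5 or less in sponge cells was 17.8% of all kept probes and 0 of the 10 member probes. With 1 probe per gene, the one of highest mean signal, the 7 genes had a median log2 IP/T of 1.25 ± 0.11 (EV) and 1.26 ± 0.08 (sponge). The octamer pair and the plasma cell factors held all ratios of 2 or more, and PAX5, TCF3 and IKZF1 lay between −0.46 and 0.48 (log2) in EV cells. After normexp only 2 (quantile) or 3 (loess) member probes reached 2-fold in EV cells, and 2 in sponge cells. POU2AF1 and IRF4 A_23_P214360 did so in all 4 cases, and PRDM1 in EV cells with loess.

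**Figure D2:**
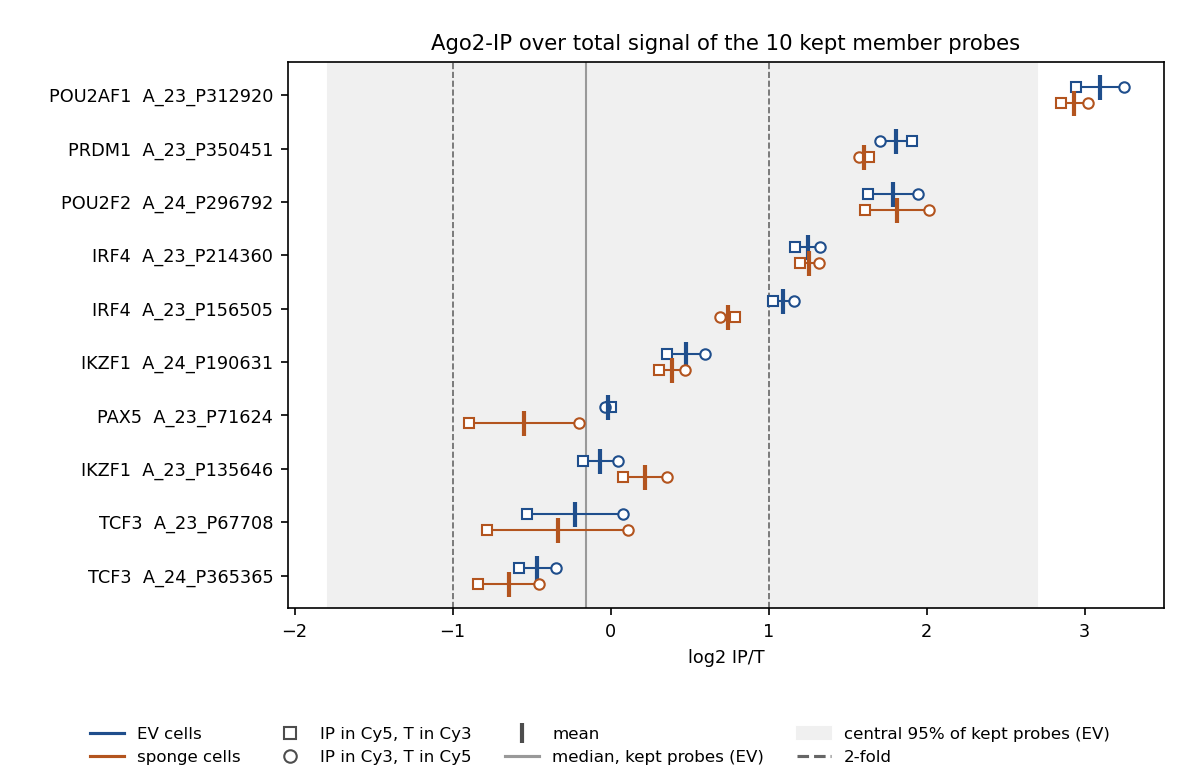
Log2 IP/T (x axis) of the 10 kept member probes in EV and sponge cells, ordered by the EV value. Open symbols are the 2 dye orientations, the upright bar is their mean, the grey band holds the central 95% of kept probes in EV cells and dashed lines mark 2-fold. POU2AF1 lies outside the band, PRDM1, POU2F2 and IRF4 A_23_P214360 lie beyond 2-fold in both populations, and the orientations of TCF3 A_23_P67708 fall on both sides of 0.

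In the order of EV ratios, neighbours often differed by more than the SD over orientations. POU2F2 stood 0.54 ± 0.11 (log2 IP/T) above IRF4 A_23_P214360, IRF4 A_23_P156505 stood 0.62 ± 0.07 above IKZF1 A_24_P190631, and the latter 0.49 ± 0.20 above PAX5. The lower end was not resolved. PAX5 and IKZF1 A_23_P135646 differed by 0.047 ± 0.18, IKZF1 A_23_P135646 and TCF3 A_23_P67708 by 0.16 ± 0.28, and the TCF3 probes by 0.24 ± 0.27.

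Differences between sponge and EV cells were small in T. None of the 10 member probes was 2-fold or more higher in sponge T than in EV T, against 0.151% of all kept probes, and none was 2-fold or more lower, against 0.258%. A smaller size of change was therefore counted as well, 1.3-fold with the same sign in both dyes, a rule chosen after the values were seen. PRDM1 was the only member probe higher by that rule, by 0.49 ± 0.03 (log2) or 1.41-fold, against 4.56% of all kept probes, and 2.45% of the kept probes had a larger difference upwards. No member probe was lower by the rule, against 4.93%. The log2 difference of PRDM1 in T ranged from 0.23 to 0.51 and was positive in 14 of 14 alternative settings, and it was under 1.3-fold with normexp.

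Other differences in T were smaller. PAX5 was higher by 0.26 ± 0.22 (log2), with 0.42 in Cy3, 0.10 in Cy5 and the opposite sign in 2 of 14 alternative settings, IRF4 A_23_P156505 by 0.21 ± 0.09, and POU2F2 by 0.14 ± 0.02. IKZF1 A_23_P135646 was lower, with a log2 difference of −0.15 ± 0.04. The differences of POU2AF1 (−0.03 ± 0.03), IRF4 A_23_P214360 (−0.03 ± 0.03), IKZF1 A_24_P190631 (−0.04 ± 0.06), TCF3 A_23_P67708 (0.10 ± 0.21) and TCF3 A_24_P365365 (−0.04 ± 0.13) in T lay within their SD. For comparison, 95% of all kept probes had a difference in T between −0.50 and 0.49.

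**Figure D3:**
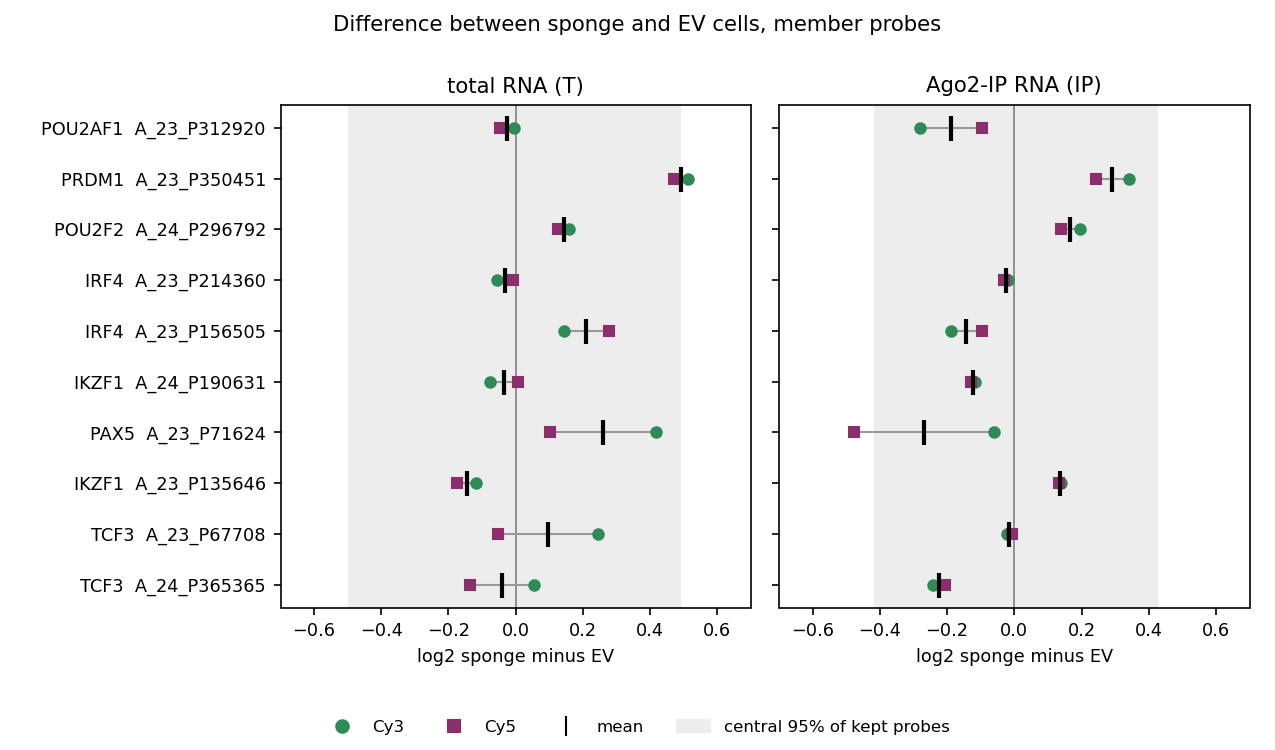
Log2 difference, sponge minus EV, in T (left) and in IP (right) for the 10 kept member probes, with Cy3 as circles, Cy5 as squares, their mean as an upright bar and the central 95% of kept probes in grey. PRDM1 lies right of 0 in both fractions and both dyes, at the edge of the band in T, and PAX5 has the widest gap between dyes in IP.

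In the IP fraction no member probe was 2-fold or more higher or lower in sponge cells, against 0.0845% and 0.0667% of all kept probes. By the 1.3-fold rule the count was again 0 in both directions, against 3.68% higher and 3.20% lower among all kept probes. The members farthest from 0 were PRDM1, higher by 0.29 ± 0.07 (log2) or 1.22-fold, and PAX5, with −0.27 ± 0.30 or 0.83-fold, a difference smaller than its SD. POU2F2 had a log2 difference of 0.17 ± 0.04 in IP, which became −0.10 with normexp and loess. POU2AF1 was lower in sponge IP, with −0.19 ± 0.13, as were TCF3 A_24_P365365 with −0.22 ± 0.03 and IKZF1 A_24_P190631 with −0.12 ± 0.01, and these 3 were negative in all 14 alternative settings. IRF4 A_23_P156505 had −0.14 ± 0.07, IRF4 A_23_P214360 −0.02 ± 0.01 and TCF3 A_23_P67708 −0.01 ± 0.01. IKZF1 A_23_P135646 had 0.14 ± 0.0042, which set it apart from the other IKZF1 probe by 0.26 ± 0.0039 and in sign.

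The ratio of ratios, sponge IP/T over EV IP/T, gives what differed in IP beyond T. POU2AF1, the member with the highest ratio, had a change in log2 IP/T of −0.16 ± 0.10 and PRDM1 one of −0.20 ± 0.10. POU2F2 had 0.02 ± 0.06. The widest changes were those of PAX5 (−0.53 ± 0.52), IRF4 A_23_P156505 (−0.35 ± 0.16) and IKZF1 A_23_P135646 (0.28 ± 0.04), and for PAX5 it was about as large as its SD and turned to 0.011 or 0.044 with normexp. The median over the 7 genes was −0.11 ± 0.02, with single genes between −0.53 and 0.02. It is the value of TCF3 A_23_P67708, whose own SD was 0.20, so its sign was not resolved. Over all kept probes the median was 0.017, with 95% between −0.48 and 0.52.

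Further B-lineage transcription factors and paralogs of the members had high IP/T as well. Of 35 genes in this list, 25 were kept, and 14 of them (56.0%) had an IP/T of 2 or more in EV cells and 12 (48.0%) in sponge cells, against 17.5% of all kept probes in either population, whereas 0 were at 0.5 or less. Without IRF8, which was not well above background in EV T, the count in EV cells was 13 of 24. Their median log2 IP/T was 1.20 ± 0.05 (EV) and 0.97 ± 0.15 (sponge). The proto-oncogene MYB had 3.29 ± 0.12 (EV) and 3.07 ± 0.07 (sponge), and the repressor GFI1 had 3.14 ± 0.01 and 3.17 ± 0.15. At the low end were SPIB, the ETS relative of SPI1, with −0.90 ± 0.03 in EV cells, and the plasma cell factor XBP1 with −0.41 ± 0.36. TCF4, an E protein like TCF3, was among the high ones with 2.94 ± 0.09 and had the largest difference of the list in IP, a log2 difference of −0.54 ± 0.15 in sponge cells. POU2F1 (OCT1), the widely expressed relative of POU2F2, had a log2 IP/T of 1.57 ± 0.31 and the largest difference in T, 0.29 ± 0.09.

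Members of a family can be set side by side, a comparison chosen after the values were seen. Among E proteins the log2 IP/T in EV cells was 2.94 ± 0.09 for TCF4 and 0.06 ± 0.02 for TCF12, with the TCF3 probes below 0. In the octamer family POU2F1 had 1.57 ± 0.31 and POU2F3 0.51 ± 0.03, against 1.79 ± 0.22 for POU2F2. For the Ikaros family IKZF2 had 0.93 ± 0.28 and IKZF4 1.64 ± 0.20, both above the probes of IKZF1. IKZF3 was well above background in 8 of 8 channels but not kept, and IKZF5 had no named probe. IRF2 had 1.77 ± 0.02. IRF8 was not well above background in EV T, so its IP/T could not be bounded. With normexp and loess its measured IP signal was 1.19-fold that of T in EV cells, against a log2 IP/T of 1.32 ± 0.71 without normexp. PRDM2 had 1.74 ± 0.11, against 1.80 ± 0.14 for PRDM1.

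Genes that B-lineage factors switch on had a median IP/T below that of all kept probes. Of 28 such target genes, 14 were kept and 8 were well above background in no channel, the latter including MS4A1 and CD22. In EV cells 1 of the 14 had an IP/T of 2 or more, against 17.5% of all kept probes, and 4 had 0.5 or less, against 19.0%, with a median log2 IP/T of −0.73 ± 0.18 (EV) and −0.69 ± 0.11 (sponge). The kinase BLK had −1.47 ± 0.19 in EV cells and VPREB3 −1.42 ± 0.21.

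**Figure D4:**
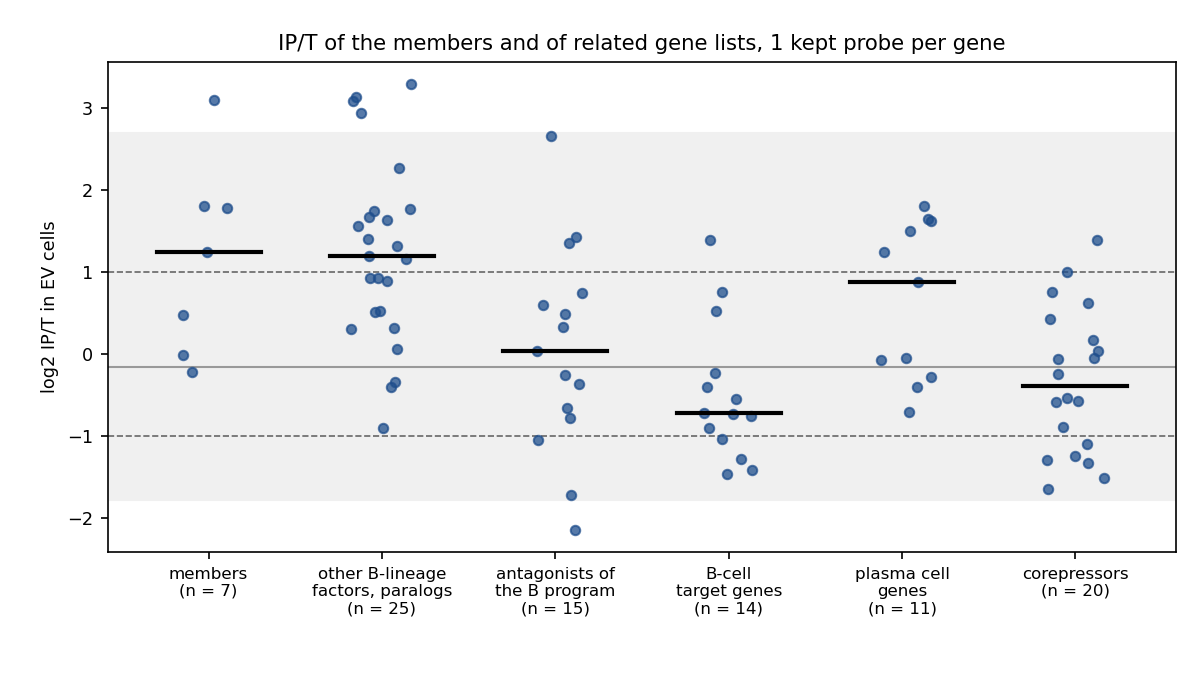
Log2 IP/T in EV cells (y axis) of the kept genes of 6 lists, 1 probe per gene, with the list median as a black bar, the median of all kept probes as a grey line, their central 95% as a grey band and dashed lines at 2-fold. The medians of the members and of the other B-lineage factors lie above 1, that of the B-cell target genes at −0.73; IRF4 and PRDM1 appear in the members and in the plasma cell list, XBP1 and SPIB also in 2 lists.

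Of the 12 plasma cell genes, 11 were kept and 5 had an IP/T of 2 or more, the same number in both populations and against 17.5% of all kept probes, and the EV median of log2 IP/T was 0.88 ± 0.49. This list holds IRF4 and PRDM1 themselves. MZB1, a chaperone of antibody-secreting cells, had 1.64 ± 0.04, and DERL3, which serves the degradation of misfolded proteins, had −0.71 ± 0.44, with a log2 difference between sponge and EV cells of 0.63 ± 0.36 in T and 0.43 ± 0.05 in IP.

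Antagonists of the B-cell program include inhibitors of E proteins, Notch pathway genes and factors of other lineages. Of 19 genes 15 were kept, 3 with an IP/T of 2 or more and 3 with 0.5 or less in EV cells, near the 17.5% and 19.0% of all kept probes, and the EV median of log2 IP/T was 0.041 ± 0.13. CEBPB, a myeloid factor and known miR-155 target, had 2.66 ± 0.06 and the Notch coactivator MAML2 1.42 ± 0.08, whereas CEBPA had −2.15 ± 0.24 and STAT5A −1.72 ± 0.19. MSC (ABF-1), which binds E proteins and represses the B-cell program in Hodgkin cells, had the largest difference in T, −0.43 ± 0.09 (log2).

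Corepressors used by BCL6, PRDM1 and IKZF1 were all kept, and 2 of 20 had an IP/T of 2 or more in EV cells, against 17.5% of all kept probes, and 6 had 0.5 or less, against 19.0%, where the median was −0.39 ± 0.13 (log2 IP/T). TLE4, of the Groucho corepressors, had 1.39 ± 0.23, while CHD4, an Ikaros-associated remodeller, had −1.52 ± 0.15. CHD4 differed in opposite directions in the fractions, with −0.21 ± 0.01 (log2, sponge minus EV) in T and 0.31 ± 0.04 in IP.

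As a reference for Ago2-bound transcripts, 18 of 25 commonly named miR-155 targets were kept, and 11 of them (61.1%) had an IP/T of 2 or more in EV cells and 10 in sponge cells, against 17.5% of all kept probes in either population. The median log2 IP/T of these targets was 1.48 ± 0.23 (EV) and 1.28 ± 0.31 (sponge). Their median log2 difference in IP, sponge minus EV, was −0.16 ± 0.0068, against 0.0062 over all kept probes. It was −0.15 ± 0.02 for the further B-lineage factors, −0.02 for the members and 0.08 for the corepressors, so a fall of this size was not particular to the targets. SOCS1, a brake on cytokine signalling, had 4.35 ± 0.19 in EV cells and HBP1 3.77 ± 0.39. The lowest of these targets were CUX1 with −1.04 ± 0.20 and MAF with −0.72 ± 0.08. All kept member probes, POU2AF1 with 3.10 included, lay within this wide range, so it does not liken POU2AF1 to the targets. SPI1, the only member on the list, was not detected.

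The genes nearest in pattern to the members with the highest and the lowest ratio were found by the Euclidean distance between log2 signals over the 8 channels, each probe centred on its own mean, among 14160 probes. For POU2AF1 these were RGS16, a regulator of G-protein signalling, at a distance of 0.24, the phosphodiesterase PDE4A at 0.27 and ZFYVE21 at 0.27. Their log2 IP/T in EV cells was 3.17, 2.91 and 3.08. For TCF3 A_24_P365365 they were NAIF1 at 0.12, UXT at 0.14 and RNF126 at 0.16, with EV ratios (log2 IP/T) of −0.51, −0.45 and −0.50. The 8 channels are 4 RNA samples measured with 2 dyes, so the likeness rests on 4 RNA samples.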

How the data were processed

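RNA of 4 samples (EV T, EV IP, sponge T, sponge IP) of L1236 cells was labelled with both dyes and hybridised to 4 Agilent two-colour arrays. The spot intensity values were, per the file headers, extracted by the authors with Feature Extraction 10.7.3.1 (10.5.1.1 in the submitters' processing notes), which subtracts background and corrects for the dye. The array carries an hg18 annotation. Each array was deposited under both of its samples with identical content, so 1 channel per sample was read. Deposited with them was a table of the authors' quantile-normalised log2 values for 22282 probes, whose columns had the rank order of these channels (Spearman's rho across probes 1), medians of 9.85 to 9.90 and a median distance of at most 0.003 from the values used here. Detection and outlier flags were used as deposited.

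Control and outlier spots were left out, spots of a probe averaged, and log2 processed signals quantile normalised over 8 channels (limma 3.58.1, R 4.3.3; summaries in Python 3.11.15). Following the study's methods, a probe was kept if well above background in at least 4 of 8 channels and if its dyes differed by at most 2-fold in each RNA, and dyes were averaged. Of 25837 detected probes, 3360 failed the second criterion. Probes were named through transcript accessions in the RefSeq table (GRCh38.p14, names only): 15631 kept probes (69.5%) received 1 symbol, for 11208 genes, and other probes were not named. No probe accession matched BCL6. Gene models could not be used to place a probe on an isoform.

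For a probe not well above background in a group, the mean of the brighter group was divided by a floor for the dimmer group. The floor was, in each channel, the larger of the probe's signal and the weakest signal well above background, then averaged. This was done after normexp (offset 50), loess and Aquantile. For EBF1 and IRF8 the probe's own signal was the larger, so the values given are measured ratios and not bounds. Background medians of negative controls were 8.00 to 11.0 (processed signal), and precision is limited by having 4 arrays. All arrays shared 1 slide and scan, so no batch could be separated. The members, the gene lists and the rules were chosen with earlier results of these data known. Every member probe is named. Of each other list, genes with the 2 highest and 2 lowest EV ratios and the largest changes are named, other names being given as chosen after the values were seen or as markers. Some genes that this rule names are not reported here. The script was tested on simulated data. Alternatives were 75th percentile scaling, normexp (on median signals, as the files hold no mean) with quantile or with loess, the deposited table, each dye and each orientation alone, outlier spots kept, other detection and dye filters, and another choice of probe.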

Additional observations from a re-analysis of the deposited data

Results flagged for a closer look

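In 3 of the 10 kept member probes, T and IP differed in opposite directions between sponge and EV cells in both dyes, a difference between the fractions that was not tested. The same held for 14.6% of all kept probes (3290 of 22477). For PAX5 the log2 difference, sponge minus EV, was 0.42 (Cy3) and 0.10 (Cy5) in T and −0.060 and −0.48 in IP, with sponge T in Cy5 not well above background, and its mean change in log2 IP/T (−0.53) was 0.011 and 0.044 with normexp. For IKZF1 A_23_P135646 it was −0.12 and −0.17 in T and 0.14 and 0.13 in IP, and the other IKZF1 probe was lower in IP. For IRF4 A_23_P156505 it was 0.14 and 0.28 in T and −0.19 and −0.10 in IP, and the other IRF4 probe lay near 0 in both fractions.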

How the results depend on the processing

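No paired analysis was possible because the replicate numbers mark the 2 dyes of 1 RNA sample and no result comes from a test. Of 700 values of single kept member probes under 14 alternatives, 633 stayed within the SD of the reported value, 67 did not, and 0 values of 2-fold or more changed sign. These counts overstate stability. Filters only select probes and repeat the value of a single probe. A single dye, for the changes in T and in IP, or a single orientation, for IP/T, lies within the SD by construction. The counts of settings with the same sign also include the repeated values. The median log2 IP/T of the 7 genes (1.25 in EV and 1.26 in sponge cells) was 0.66 and 0.60 with normexp and quantile normalisation, 0.75 and 0.52 with normexp and loess, and 1.52 and 1.43 with detection required in all 8 channels, which drops PAX5. The number of member probes with an IP/T of 2 or more (5 and 4) was 2 and 2 with normexp and quantile normalisation and 3 and 2 with loess. How far the offset of normexp, or its use of median signals, accounts for these lower values was not tested. The median change in T (0.096) was −0.026 with a dye filter of 1.5-fold, 0.046 with normexp and quantile normalisation, 0.035 with all channels detected, 0.0058 with Cy5 only and 0.16 with Cy3 only. The median change in IP (−0.024) was −0.033 with 75th percentile scaling, −0.0077 and −0.035 with normexp and quantile or loess, −0.029 with IP in Cy5 only, −0.019 with all channels detected and −0.12 with the stricter dye filter, and ranged from −0.029 to −0.023 with each dye left out. The median change in IP/T (−0.11) was −0.035 with normexp and quantile normalisation and −0.16 with the stricter dye filter, and −0.17 to −0.048 with each dye left out. Member probes past 1.3-fold in T (1) numbered 2 with IP in Cy5 only, 0 with either normexp setting, and 1 to 2 with a dye left out. In IP (0) they numbered 1 with IP in Cy5 only and 0 to 1 with a dye left out. Differences in SPI1 and EBF1 were not detectable at this signal over background, and 1 RNA sample per group leaves culture and precipitation error unmeasured.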
